A study of Saccharomyces cerevisiae with 7 samples.

Results

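The phosphate signalling regulators examined here are the 8 genes PHO4, PHO2, PHO80, PHO81, PHO85, SPL2, KCS1 and VIP1 of Saccharomyces cerevisiae, out of 5449 genes that the array annotation names for this yeast. They were taken by gene symbol, and the probeset of a gene, its group of short probes on the array, was to be chosen by the highest mean signal over all arrays. Each of the 8 genes had 1 probeset only, so that choice removed nothing, and the mean does not use the difference between groups. RNA came from 7 independent cultures of NRRL Y-12632 (ATCC 18824), a cir+ strain, with no mutation or transgene named for either group. A 48 h culture in control media was the inoculum for all of them. The 4 mine drainage cultures grew for 24 h at 30 °C in YPD, a rich medium of yeast extract, peptone and glucose, made with water from asbestos mine tailings, and the 3 control cultures grew in the same YPD made with distilled or deionized water, as different labels have it. The study reports a higher pH and more magnesium in the mine drainage media than in the control media. Total phosphorus was not lower there, and phosphate itself is not listed. The labels speak of a further control culture, which is not analysed here. The cultures are of a single strain, sampled at a single time.

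Yeast senses inorganic phosphate through the PHO pathway. When phosphate is plentiful, the cyclin-dependent kinase Pho85 with its cyclin Pho80 phosphorylates the transcription factor Pho4, which is then kept out of the nucleus. When phosphate is scarce, the inhibitor Pho81 blocks the kinase and Pho4, together with the homeodomain factor Pho2, turns on genes for phosphate uptake and release. Inositol pyrophosphates, made by the kinases Kcs1 and Vip1, bind SPX domains such as that of Pho81 and take part in the signal. The control of these proteins is largely by phosphorylation, location and binding, which RNA levels do not measure.

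After growth in mine drainage media, PHO4 and SPL2 were higher, PHO2 and KCS1 were lower, and PHO80, PHO81, PHO85 and VIP1 did not pass the test. Values are log2 signals from the Robust Multichip Average (RMA), so a difference of 1 is a doubling. Each probeset was compared between the groups with limma, which fits a linear model per probeset and moderates its variance by that of the others, and p-values were adjusted by the Benjamini-Hochberg method over all 5498 probesets that name S. cerevisiae genes. At an adjusted p under 0.05, 4 of the 8 genes were called (50.0%), 2 higher and 2 lower. Over all probesets tested 31.6% were called, 14.5% higher and 17.1% lower, so calls were common throughout the array. The same 4 genes had no overlap between the groups, which held for 38.2% of all probesets, 17.7% higher on every mine drainage array and 20.5% lower. At the thresholds of the study, an unadjusted p under 0.05 in its gene-by-gene test and a fold of at least 1.5, PHO4 passed as higher and PHO2 as lower, where 5.66% and 7.02% of all probesets passed. The gene-by-gene test is otherwise read below at an adjusted p under 0.05. This is stricter on p than the rule of the study but has no fold threshold. Of all probesets, 6.58% passed it as higher and 6.69% as lower. The median difference was -0.03 over the 8 genes and also -0.03 over all probesets tested. All 8 probesets lay on all 7 arrays above 1.52, the 95th percentile of the probesets on the array that name genes of Schizosaccharomyces pombe, which has no RNA in these cultures. On at least 3 arrays, 5421 of the 5498 probesets also lay above it, so this floor sets few genes apart.

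**Figure D1:**
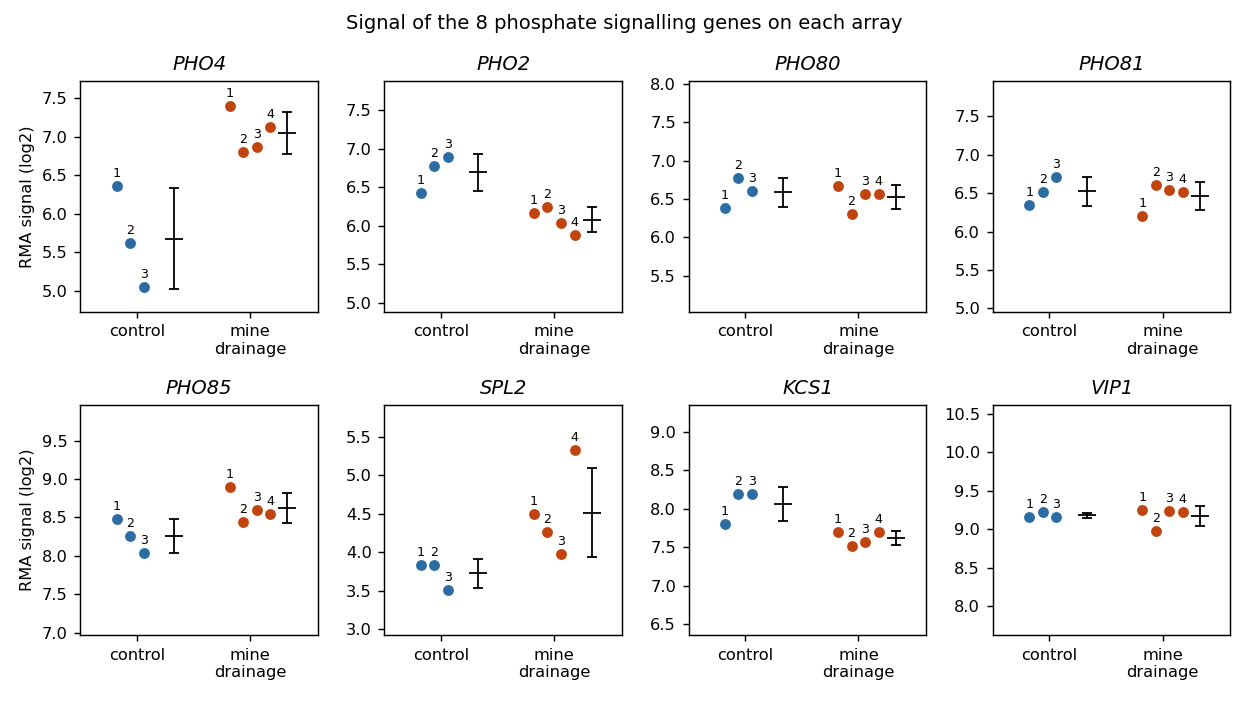
RMA log2 signal of each gene on the 3 control and 4 mine drainage arrays. Points carry the replicate number, bars are the mean and SD of the group, and every panel spans 3 log2 units. PHO4 and SPL2 sat higher on every mine drainage array than on any control array, PHO2 and KCS1 sat lower, and the groups overlapped for the other 4 genes.

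Of 3 measures of the arrays themselves, the rRNA signal separated the groups and the other two overlapped. Probesets for rRNA averaged 12.0 to 12.2 on the mine drainage arrays and 11.6 to 11.8 on the control arrays (exact permutation test over the 35 splits, two-sided, p = 0.0286, the smallest they can give). The hybridization controls, which are added to the sample, averaged 9.66 to 10.1 and 9.37 to 9.72 (exact permutation p = 0.0857). The excess of 3' over 5' probeset signal, averaged over 8 yeast control transcripts as a sign of RNA integrity and priming, was 0.50 to 0.87 in mine drainage and 0.79 to 1.14 in control (exact permutation p = 0.114). The reference genes ACT1 (actin) and TDH3 (a glycolytic enzyme) differed by 0.04 and 0.09 between the groups (adjusted p = 0.727 and 0.454 from limma).

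PHO4 encodes the basic helix-loop-helix activator at the end of the pathway. Its signal was 7.41, 6.81, 6.87 and 7.13 on mine drainage arrays 1 to 4, and 6.36, 5.62 and 5.05 on control arrays 1 to 3. The lowest mine drainage array stood 0.44 above the highest control array, so the groups did not overlap, but the control arrays spread over 1.32 log2 units against 0.60 in mine drainage. The means were 7.05 ± 0.274 (SD, n = 4) and 5.68 ± 0.660 (SD, n = 3). PHO4 rose by 1.38 (standard error 0.27, 95% interval 0.77 to 1.98, adjusted p = 0.00682 from limma), a fold change of 2.60 with an interval of 1.71 to 3.95. Only 25 of the 5498 probesets had a larger absolute difference, while the spread of PHO4 within groups was at the percentile 99.1 of all probesets.

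Control array 1, with the highest PHO4 signal of the controls, had the lowest 3' excess (0.79), and control array 3, with the lowest PHO4 signal, had the highest (1.14). The mine drainage arrays had the same inverse order. Arrays 1, 4, 3 and 2 had a 3' excess of 0.50, 0.66, 0.75 and 0.87, and PHO4 signals of 7.41, 7.13, 6.87 and 6.81. Control array 1 stood 0.60 of the way from the mean of control arrays 2 and 3 to the mine drainage mean. With this 3' excess as a covariate the PHO4 difference was 0.72 (adjusted p = 0.0494 from limma), and in the gene-by-gene test the same difference had an unadjusted p of 0.0121 and an adjusted p of 0.0618. Leaving out each array in turn gave differences from 1.06 (without control 3) to 1.72 (without control 1), all at an adjusted p under 0.05.

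PHO2 encodes the homeodomain factor that binds with Pho4, and also with the factors Bas1 and Swi5 at other promoters. Its signal was 6.16, 6.25, 6.03 and 5.88 on mine drainage arrays 1 to 4, and 6.43, 6.78 and 6.89 on control arrays 1 to 3. Every mine drainage array was below every control array, with a gap of 0.18 between the groups. The means were 6.08 ± 0.162 (SD, n = 4) and 6.70 ± 0.242 (SD, n = 3), and PHO2 fell by 0.62 (standard error 0.14, adjusted p = 0.00982 from limma), or 1.54-fold. The 95% interval ran from -0.92 to -0.32. PHO4 and PHO2, which act together on phosphate genes, thus moved in opposite directions. Taken as the within-array difference of PHO4 and PHO2, with its control mean set to 0, the mine drainage arrays lay from 1.58 to 2.28 and the control arrays from -0.82 to 0.96. This and the other within-array differences below are descriptions, with no test. The PHO2 call was lost without control 2 (-0.58, adjusted p = 0.0515), with the 3' excess covariate (-0.45, adjusted p = 0.117 from limma) and in the gene-by-gene test at the adjusted threshold (unadjusted p = 0.00934, adjusted p = 0.0556). Control array 1 lay nearest to mine drainage, having covered 0.54 of the distance from its fellow controls.

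**Figure D2:**
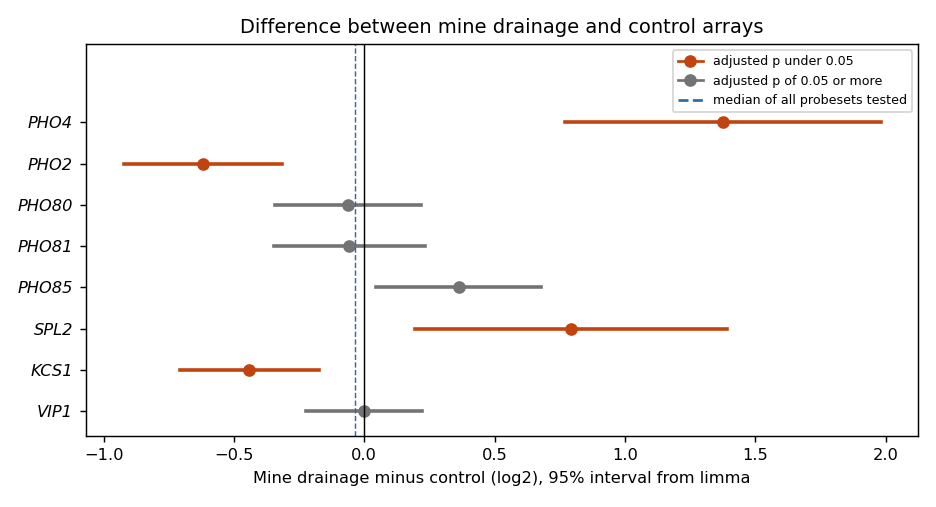
Mine drainage minus control for each gene on the log2 scale, with the 95% interval from limma. Coloured intervals belong to genes at an adjusted p under 0.05, grey ones to the rest, and the dashed line at -0.03 is the median of all probesets tested. The PHO4 interval, 0.77 to 1.98, was the one farthest from 0, and the VIP1 interval lay about 0.

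The kinase complex gave no call. PHO85 encodes the cyclin-dependent kinase, which also works with other cyclins in glycogen storage and the cell cycle. Its signal was 8.90, 8.44, 8.60 and 8.54 on mine drainage arrays 1 to 4, and 8.49, 8.26 and 8.03 on control arrays 1 to 3. Only mine drainage array 2 and control array 1 overlapped, by 0.05. The difference was 0.36 (standard error 0.14, 95% interval 0.05 to 0.68, unadjusted p = 0.0289 and adjusted p = 0.0765 from limma). Control array 1 again lay nearest to mine drainage, at 0.72 of the way from the other controls. Without it the difference was 0.48 and passed (adjusted p = 0.0371), and with the 3' excess covariate it was 0.06 (adjusted p = 0.766 from limma).

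PHO80, the cyclin that directs Pho85 to Pho4, had a signal of 6.30 to 6.67 in mine drainage and 6.38 to 6.77 in control. The groups lay on top of each other, and the difference was -0.06 (95% interval -0.34 to 0.22, adjusted p = 0.726 from limma). PHO81, the SPX domain inhibitor of the kinase and itself a target of Pho4, had 6.20 to 6.61 in mine drainage and 6.34 to 6.72 in control. Its difference was -0.06 as well (95% interval -0.35 to 0.23, adjusted p = 0.764 from limma). For both genes the intervals leave room for a change of up to 1.27-fold down or 1.18-fold up, and the sign of both differences turned in several alternatives. In the within-array difference of PHO80 and PHO85, the mine drainage arrays lay from -0.55 to -0.31 and the control arrays from -0.43 to 0.24, about the control mean, and they overlapped.

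SPL2 encodes a small protein related to the Pho81 inhibitor that lowers low-affinity phosphate transport when phosphate is scarce, and it is a target of Pho4. Its signal was 4.49, 4.26, 3.98 and 5.33 on mine drainage arrays 1 to 4, and 3.83, 3.83 and 3.51 on control arrays 1 to 3. All mine drainage arrays were above all control arrays, by at least 0.15, and array 4 stood well above the rest. Control array 1 was level with control array 2 here. It had covered only 0.187 of the distance from its fellow controls to mine drainage. No such share over all probesets is given here. The means were 4.52 ± 0.580 (SD, n = 4) and 3.72 ± 0.186 (SD, n = 3), and SPL2 rose by 0.79 (standard error 0.27, 95% interval 0.19 to 1.39, adjusted p = 0.0479 from limma), or 1.73-fold. SPL2 had the lowest signal of the 8 genes, where the median over all probesets tested ran from 7.41 to 7.48 across the arrays. Its spread within groups was at the percentile 99.0 of all probesets. The SPL2 call was at the edge of the threshold. It was lost in 8 of 16 alternatives, among them 5 of the 7 that leave out 1 array, and with the 3' excess covariate the difference was 0.49 (adjusted p = 0.364 from limma). Without mine drainage 4 it was 0.52.

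Of the targets of Pho4 among the regulators, SPL2 was therefore called and PHO81 was not. KCS1 and VIP1 encode the kinases of inositol pyrophosphate synthesis. KCS1 had a signal of 7.70, 7.52, 7.57 and 7.70 on mine drainage arrays 1 to 4, and 7.81, 8.19 and 8.19 on control arrays 1 to 3. Every mine drainage array was below every control array, with a gap of 0.11, and control array 1 had covered 0.675 of the distance between its fellow controls and mine drainage. The means were 7.62 ± 0.0931 (SD, n = 4) and 8.06 ± 0.222 (SD, n = 3), and KCS1 fell by 0.44 (standard error 0.12, 95% interval -0.71 to -0.17, adjusted p = 0.0216 from limma), or 1.36-fold. In S. cerevisiae Pho4 is also known to drive antisense and intragenic RNAs at KCS1. Whether the probeset reads these was not tested. The call was lost without mine drainage 3, control 2 or control 3 (adjusted p = 0.0558, 0.104 and 0.0873), once a trend with coding length was removed (-0.31, adjusted p = 0.0569) with the 3' excess covariate (-0.41, adjusted p = 0.136 from limma) and in the gene-by-gene test (unadjusted p = 0.0145, adjusted p = 0.0676).

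VIP1 gave signals of 9.26, 8.98, 9.24 and 9.23 on mine drainage arrays 1 to 4, and 9.16, 9.22 and 9.15 on control arrays 1 to 3. Apart from mine drainage array 2, all values lay within 0.10 of each other. The difference was -0.002 (95% interval -0.22 to 0.22, adjusted p = 0.992 from limma), which leaves room for a change of up to 1.17-fold either way. The within-array difference of KCS1 and VIP1, about its control mean, was -0.55 to -0.35 on the mine drainage arrays and -0.24 to 0.15 on the control arrays, with no overlap.

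**Figure D3:**
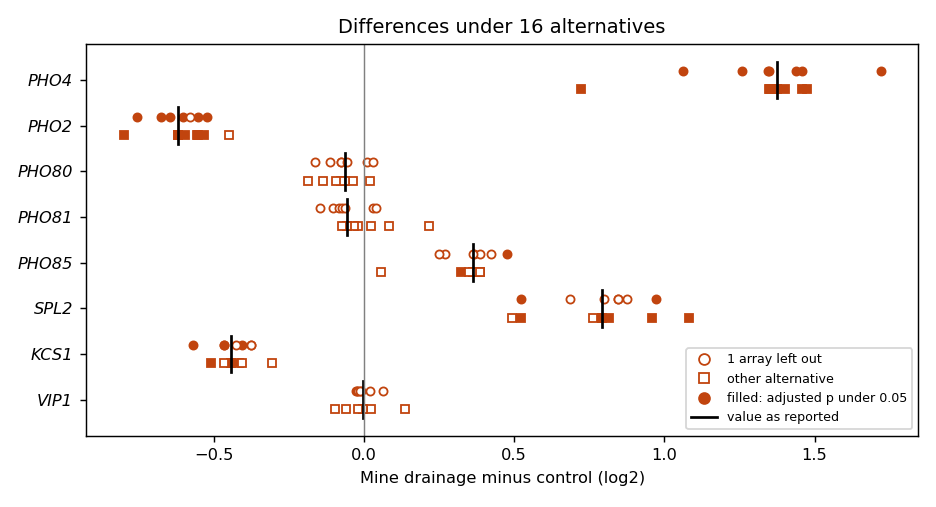
Difference of each gene on the log2 scale under 16 alternatives. Circles leave out 1 array, squares change the test, the normalization, a filter or a covariate, filled symbols have an adjusted p under 0.05, and the black line is the value as reported. PHO4 stayed between 0.72 and 1.72 and PHO2 between -0.80 and -0.45, while PHO80, PHO81 and VIP1 fell on both sides of 0.

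Genes around the regulators were counted in lists written from knowledge of the pathway, with earlier results of these arrays known, so the counts are descriptions. They are to be read against the shares over all probesets, 14.5% higher and 17.1% lower, which at an unadjusted p under 0.05 from limma were 19.7% and 24.6%. The lists were not read with the 3' excess as a covariate or with the length trend removed. Of 16 targets of Pho4 outside the 8 genes, 14 had a usable probeset, and 3 rose, against 14.5% of all probesets, and none fell (limma; 5 and 0 at an unadjusted p under 0.05, and 3 and 0 by the gene-by-gene test). PHO84, the high-affinity phosphate transporter, had 8.16, 7.51, 7.80 and 8.19 on mine drainage arrays 1 to 4 and 6.54, 6.70 and 6.56 on control arrays 1 to 3, a rise of 1.32 (adjusted p = 0.00195 from limma). PHO5, the secreted acid phosphatase, had 5.48, 5.33, 5.52 and 5.25 against 3.73, 3.79 and 4.28, a rise of 1.46 (adjusted p = 0.00125). Both genes had no overlap between the groups, and the control arrays of PHO84 lay within 0.15 of each other, against 1.32 in PHO4. VTC3, a subunit of the vacuolar polyphosphate polymerase, rose by 0.40 (adjusted p = 0.00921). The median of the 14 differences was 0.23, against -0.03 over all probesets.

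For the 10 cyclins that pair with Pho85, PHO80 included, none was called in either direction by limma or by the gene-by-gene test, and none had an unadjusted p under 0.05 from limma. Their differences ran from -0.29 to 0.21 with a median of 0.03. Of 10 other proteins that Pho85 is known to phosphorylate, 1 gene rose and 1 fell (3 and 4 at an unadjusted p under 0.05 from limma). Without mine drainage 2 these counts were 3 and 2, and without control 1 the count lower was 2. RIM15, a kinase of entry into quiescence, rose by 0.57 (adjusted p = 0.00621), with 6.61 to 6.94 in mine drainage and 6.12 to 6.34 in control. CRZ1, the transcription factor of the calcineurin response, fell by 0.62 (adjusted p = 0.00516), with 7.53 to 7.96 against 8.28 to 8.42.

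Among 7 enzymes of inositol polyphosphate metabolism, KCS1 and VIP1 included, 2 fell, against 17.1% of all probesets, and none rose (limma; 4 and 0 at an unadjusted p under 0.05, and none by the gene-by-gene test). Beside KCS1, ARG82, the multikinase that acts earlier in the same synthesis and also in arginine control, fell by 0.43 (adjusted p = 0.0245). It had 6.01, 6.29, 5.99 and 6.04 on mine drainage arrays 1 to 4 and 6.32, 6.69 and 6.54 on control arrays 1 to 3, with a gap of 0.02 between the groups. The median of the 7 differences was -0.28. The count of genes lower was 0 without mine drainage 3, control 2 or control 3, 1 without mine drainage 4 and 4 without control 1.

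**Figure D4:**
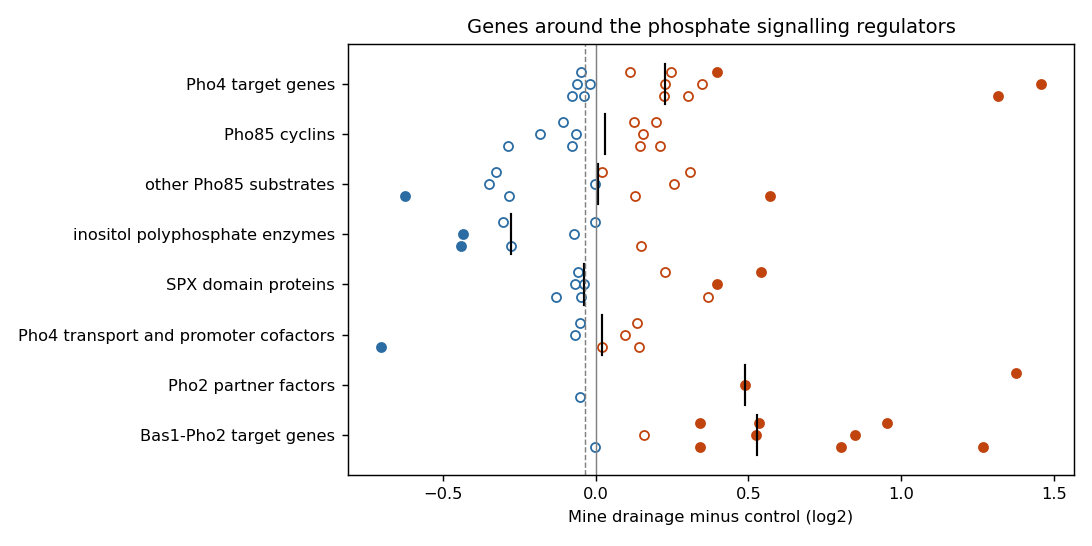
Mine drainage minus control on the log2 scale for each measured gene of 8 lists around the regulators. Filled points have an adjusted p under 0.05 from limma, colour gives the sign, black lines are list medians and the dashed line is the median of all probesets tested. The Bas1-Pho2 targets had the highest median, 0.53, and the inositol polyphosphate enzymes the lowest, -0.28.

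SPX domain genes, which include PHO81, gave 2 rises, against 14.5% of all probesets, and no fall among 9 measured (limma; 3 and 0 at an unadjusted p under 0.05, and 2 and 0 by the gene-by-gene test). The count higher was 1 without control 2. One of the genes is VTC3. The other is PHO87, a low-affinity phosphate transporter whose protein is a known target of Spl2, which rose by 0.54 (adjusted p = 0.00864), from 7.29 to 7.66 in control to 7.87 to 8.11 in mine drainage. Of 7 genes for the nuclear transport of Pho4 and for cofactors at phosphate promoters, 1 fell and none rose (limma; 1 and 0 at an unadjusted p under 0.05, and none by the gene-by-gene test). ASF1, a histone chaperone, fell by 0.70 (adjusted p = 0.027), with 8.55, 8.52, 7.73 and 8.09 in mine drainage and 8.71, 8.90 and 9.17 in control. The call of ASF1 was lost without mine drainage 3 or 4 or control 2 or 3.

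Pho2 has partners beside Pho4. SWI5, a cell cycle transcription factor, rose by 0.49 (adjusted p = 0.0497), and the call was lost without any 1 array but control 1. BAS1, the factor of purine and histidine synthesis, differed by -0.05 (adjusted p = 0.812). It was singled out once its values were known. Of 10 measured targets of Bas1 and Pho2, 8 rose, against 14.5% of all probesets, and none fell (limma; 8 and 0 at an unadjusted p under 0.05, and 7 and 0 by the gene-by-gene test). Their median was 0.53, while the PHO2 signal itself was lower. The count higher was 6 after a further quantile normalization and without mine drainage 4, control 2 or control 3. Without mine drainage 2 or 3 it was 7. ADE8 and ADE1, of purine synthesis, rose by 1.27 and 0.95 (adjusted p = 0.00177 and 0.00343). MTD1 and SHM2, of one-carbon metabolism, rose by 0.85 and 0.80 (adjusted p = 0.00581 and 0.00177). The 2 that were not called, ADE6 and HIS4, likewise named once their values were known, differed by 0.16 and -0.003.

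The genes most like each called regulator were found by the root mean square difference of their log2 values from its values, over the 7 arrays, after each gene's control mean was subtracted, among 5367 other genes. For PHO4 these were YIH1, an inhibitor of the kinase Gcn2 (0.08 log2 units), ERC1, a membrane transporter (0.17), and PRY1, a secreted sterol-binding protein (0.21). YIH1 had 7.87, 7.14, 7.18 and 7.48 on mine drainage arrays 1 to 4 and 6.56 on control array 1 and 5.47 on control array 3. Likeness on these arrays is what chose these genes. For PHO2 they were RMP1, of RNase MRP (0.06), YOR238W (0.06) and IWR1, of RNA polymerase import (0.07). For KCS1 they were MMS21, a SUMO ligase (0.05), HSE1, of endosomal sorting (0.05), and AMD2, a putative amidase (0.06). SPL2 had no close match: FAT3, NRG2 and CHS2 were nearest, at 0.29, 0.30 and 0.32.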

How the data were processed

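Total RNA was labelled and hybridized to Affymetrix Yeast Genome 2.0 arrays. The authors deposited log2 signals computed with RMA (background correction, quantile normalization, summarization of probes) in Partek, per the labels and the study's methods. The genome build is not given in the sources used here. Probesets were matched by gene identifier to an R64 gene table: of 10928 probesets, 5498 name S. cerevisiae genes. Values were not normalized again. limma 3.58.1 (R 4.3.3) compared 4 mine drainage with 3 control arrays over those probesets, two-sided, with 5 residual degrees of freedom. The study's own gene-by-gene test on the same values was an alternative, as were another prior, array weights, normalizations and a filter on dim probesets. Further alternatives were a replicate block, the 3' excess as a covariate, a trend with coding length subtracted from the values, and leaving out each array. The groups came from the titles. The members and the gene lists were chosen with earlier results of these data known. Genes named from the lists are the called ones, at most 4 per list by size, with PHO84 and PHO5, and 3 genes most like each called regulator. BAS1, ADE6 and HIS4, outside this rule, are named because they complete short counts. The 128 probesets whose identifier marks shared probes stayed among the 5498 tested but were not taken as the probeset of a gene. This left out PHO11, while PHO12, VTC5 and ADE5,7 had no probeset named in the annotation used. No depth applies to arrays, where the number of samples limits the precision. Same-numbered mine drainage and control arrays did not deviate together (correlations of -0.18 to 0.08).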

Additional observations from a re-analysis of the deposited data

Results flagged for a closer look

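VIP1 on mine drainage array 2 had a log2 signal of 8.98, apart from the other mine drainage arrays at 9.23 to 9.26. The gap to the nearest of them was 0.90 of the group's range. Chance flags about 1 in 20 groups of this size, and 8 genes were looked at. Without this array the VIP1 difference was 0.06 (adjusted p = 0.601 from limma). No flag was listed for the smaller control group, which does not mean that its values were even. There too, 1 array stood apart for 2 called genes, by nearly the whole range of the group. These were KCS1 on control array 1 (7.81 against 8.19 and 8.19) and SPL2 on control array 3 (3.51 against 3.83 and 3.83).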

How the results depend on the processing

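The 4 called genes kept their direction in all 16 alternatives each, but many of these could not turn it. The gene-by-gene test, the other prior and the filter on dim probesets leave a difference unchanged. Where the groups do not overlap, leaving out, weighting or blocking arrays cannot turn its sign. The count of regulators higher, 2 as reported, was 0 with the gene-by-gene test at an adjusted p under 0.05 (1 at the thresholds of the study), 1 with the 3' excess covariate, 1 once a trend with coding length was removed and 1 to 2 when each array was left out. The count lower, also 2, was 0, 0, 1 and 0 to 2 in the same settings, and 1 with the replicate number as a block, where KCS1 was lost (-0.47, adjusted p = 0.0713). The block changed no other call, and the numbers do not pair the arrays. Only mine drainage has a replicate 4, so the block takes that array out of the estimate. Its differences equal those without mine drainage 4 and are no separate check of them. The block took the number called over all probesets to 432 higher and 497 lower, from 795 and 942. Over all probesets the numbers called were 362 and 368 with the gene-by-gene test, 228 and 283 with the 3' excess covariate, and 1476 and 1820 with array weights, whose fit stopped before its tolerance was met. The cause of these changes was not tested. Among genes not called, PHO80 turned to 0.019 after a further quantile normalization and ran from -0.163 to 0.029 when each array was left out, above 0 without mine drainage 2 (0.011) or control 2. PHO81 turned to 0.024 after that normalization, 0.215 with the 3' excess covariate and 0.082 after the length trend, and ran from -0.147 to 0.040 with arrays left out, above 0 without mine drainage 1 (0.031) or control 3. VIP1 turned to 0.023 after a median shift and 0.136 after the length trend, and ran from -0.028 to 0.063 with arrays left out, above 0 without mine drainage 2 or control 2 (0.020). PHO85 was also called with array weights (0.32, adjusted p = 0.00694). Every gene had 1 probeset, so the use of every probeset of a gene was not run.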
